A study of Mus musculus with 18 samples.

Results

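Small cell lung cancer lines that share the same engineered genotype can still differ from one another before any treatment, and those differences are what is described here. Cell line 4716-11 was compared with cell lines 4711-1 and 4711-18 while p53 was switched off. The members are the 9 Control libraries of the series, of 18 in all. There were 3 libraries of 4716-11 and 6 of the 4711 lines, matched by sgRNA. Of 25239 genes with a deposited value, the 12135 with at least 1 TPM, a transcript abundance scaled for gene length and library total, in 3 or more of the 9 libraries were tested.

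All lines were derived from lung tumors of mice with floxed Rb1 and Rbl2 (Rb1 flox/flox and Rbl2 flox/flox), a Trp53 XTR/XTR genotype and Rosa26 FlpO-ER, on a mixed B6J/129S4vJae background, after Ad:CMV-Cre. Cre deletes Rb1 and Rbl2 and flips a gene trap that stops Trp53 transcription and makes the cells express EGFP, the trapped (TR) state. The study calls lines that die after p53 restoration Type D, and all 3 lines are of this type. Each line carried LentiCRISPRv2 with an sgRNA against β-Gal (sgBgal) or against Ppia, the gene of cyclophilin A, in its exon 3 (sgPpia#3.2) or exon 4 (sgPpia#4.1). Control cells received vehicle for 72 h. The matching Restored libraries received 4-OHT, which lets FlpO remove the trap. The labels give 1 library for each line, sgRNA and treatment. They do not say whether 4711-1 and 4711-18 came from the same mouse.

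A tumor-derived line can descend from few cells, and it keeps features of the cells and the animal it came from. A line can lack a chromosome, express a gene from 1 parental allele only, or keep a stretch of chromatin silent through many divisions. Genes that lie side by side on a chromosome, genes of a pathway, and genes with a common promoter element can therefore each be a useful unit of comparison between lines. In SCLC, cells are sorted further by whether they express neuroendocrine genes or have lost them.

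The 9 libraries did not look like neuroendocrine SCLC by its defining transcripts. Chga, the secretory granule protein chromogranin A, was at most 0.0913 TPM and Calca, the calcitonin gene, at most 0.0181 TPM. Of 10 neuroendocrine markers, 4 reached 1 TPM in any library, the highest being Ncam1 with 6.90 to 21.6 TPM. Epithelial keratins and vimentin were high together, with Krt8 at 5402 to 8337 TPM, Krt18 at 3687 to 8542 TPM and Vim at 2827 to 6133 TPM. Cdh1, the epithelial cadherin, was at 347 to 924 TPM. Of 6 epithelial markers, 5 reached 1 TPM in a library of 4711-1 and of 4711-18, and 3 in 4716-11. Epcam, the epithelial cell adhesion molecule, was at 0.0796 to 0.131 TPM in 4716-11, 0.521 to 1.10 TPM in 4711-1 and 1.97 to 6.25 TPM in 4711-18. It was called lower against the average of the 4711 lines (-1.45, adjusted p = 0.00996), and of the single lines against 4711-18 only. The call was lost without the 4716-11 library with sgBgal (adjusted p = 0.0763) or with sgPpia#4.1 (adjusted p = 0.0684). Cldn7, a claudin, was at most 0.336 TPM in any library. Of 27 fibroblast, endothelial and immune markers, 3 reached 1 TPM in any library (Pecam1, Cd68 and Lyz2, none above 7.13 TPM), and the pan-leukocyte marker Ptprc was at most 0.0814 TPM.

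The engineered genes and the guide target were not called between the lines. Trp53 transcripts were at 5.45 to 8.41 TPM in the 9 libraries, and Cdkn2a, the Ink4a/Arf tumor suppressor, at 1240 to 1789 TPM. Ppia was at 2849, 1207 and 1952 TPM in 4716-11 with sgBgal, sgPpia#3.2 and sgPpia#4.1. In the same order it was at 2704, 1073 and 1713 TPM in 4711-1 and at 2575, 658 and 1684 TPM in 4711-18. So Ppia followed the sgRNA label in each line, and the line difference was 0.28 (log2, adjusted p = 0.209 by limma). None of the 7 genes in this list, which also holds Rb1 and Rbl2, was called.

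Total expression first showed how far apart the lines stood. Distance between libraries was taken as the root mean square difference over the 12135 tested genes, in log2(TPM + 1). The 3 libraries of 4716-11 lay 0.220 to 0.263 from each other, those of 4711-1 0.350 to 0.409, and those of 4711-18 0.308 to 0.565. Libraries of 4716-11 lay 0.596 to 0.736 from those of 4711-1 (median 0.642) and 0.688 to 0.840 from those of 4711-18 (median 0.740). The 4711 lines lay 0.764 to 0.864 from each other (median 0.815). The shared number 4711 therefore did not mark the closest pair. Every one of the 9 pairs between 4716-11 and 4711-1 was closer than every one of the 9 pairs between the 4711 lines.

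**Figure D1:**
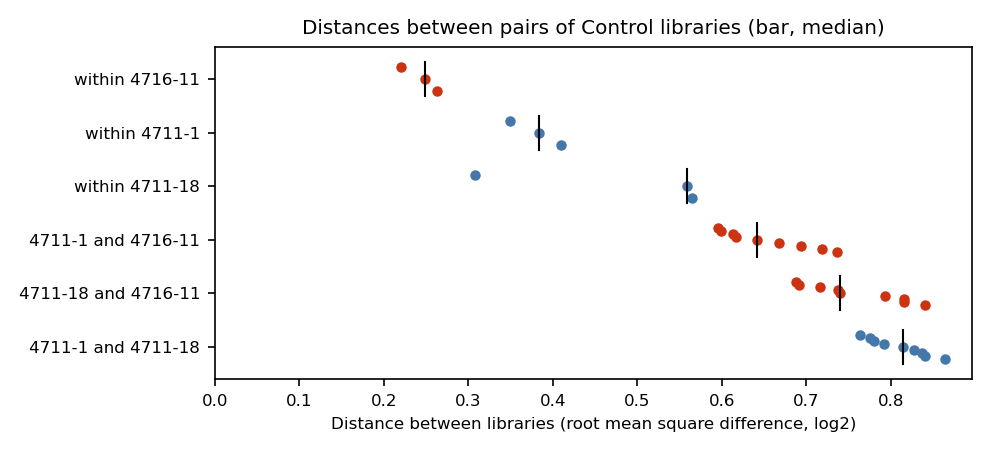
Distances between pairs of Control libraries on the log2(TPM + 1) scale, 1 point per pair, with the median as a bar. Pairs within 4716-11 are closest (0.220 to 0.263), and pairs of 4711-1 with 4711-18 have the highest median (0.815).

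Genes were then compared one by one. With limma on log2(TPM + 1), a mean for each line and the sgRNA as a block, a gene was called when it differed by 1 or more on the log2 scale, in either direction, and its p adjusted by Benjamini-Hochberg was below 0.05. Between 4716-11 and 4711-1, 784 genes were called, 254 higher and 530 lower in 4716-11. Between 4716-11 and 4711-18, 1058 genes were called, 471 higher and 587 lower. Between the 4711 lines, 1129 were called. The smallest count was that against 4711-1 under every alternative run. The order of the other counts turned with a pseudocount of 0.1 (1394 against 4711-18 and 1381 between the 4711 lines) and without some libraries. These were 4711-1 with sgBgal (1017 and 980), 4711-1 with sgPpia#4.1 (1087 and 1073), 4711-18 with sgPpia#4.1 (1193 and 1062) and all 3 sgPpia#4.1 libraries (992 and 901). Without 4711-1 with sgPpia#3.2 both counts were 1081. These comparisons share libraries. The p-values measure the spread between libraries within lines, since each line is 1 culture line, and they do not say how a further line would behave.

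Against the average of both 4711 lines, 242 genes were higher in 4716-11 and 397 were lower. These are 1.99% and 3.27% of the genes tested, 5.27% in either direction. An average over unlike lines also calls genes that differ from only 1 of them. Of the 242, 114 were called against both 4711 lines, 27 against 4711-1 alone and 101 against 4711-18 alone. Of the 397, the numbers were 166, 92 and 139. With the line as the unit of replication, 1 line mean against 2, limma called 0 genes. An unadjusted p under 0.05 was found for 442 genes, fewer than the 607 that make up a share of 0.05 of the genes tested.

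A stricter description was used for this reason. A gene was set apart when all 3 values of 4716-11 lay at least 1 log2 unit beyond all 6 values of the 4711 lines. By this measure, 52 genes were set apart higher (0.429% of those tested) and 91 lower (0.75%). The median log2 fold change of all tested genes was -0.12, a general shift toward lower values in 4716-11. After median-of-ratios rescaling the median was -0.01, with 310 genes called higher and 345 lower. Such rescaling brings the median near 0 by design, and the cause of the shift was not tested.

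Library 4711-18 with sgPpia#3.2 stood apart from the other libraries of its line. Its Cdkn1a, the p21 cell-cycle inhibitor, was at 369 TPM, where the other 8 libraries had 99.4 to 171 TPM. Without this library, 269 genes were called higher in 4716-11 and 342 lower. Without the 3 sgBgal libraries, 1 from each line, the counts were 140 and 188. Relative depth, read from the steps between low TPM values, was 1.56 to 1.71 in 4716-11, 1.09 to 1.78 in 4711-1 and 1.06 to 1.28 in 4711-18, each relative to the shallowest of the 18 libraries. Absolute depth is unknown, and the part of depth in low values was not tested.

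The gene with the largest rise was near 0 in both 4711 lines. Hspb8, a small heat shock protein that works with BAG3 in clearing misfolded proteins, was at 53.1, 38.4 and 36.4 TPM in 4716-11 with sgBgal, sgPpia#3.2 and sgPpia#4.1. In that order it was at 0.234, 0.382 and 0.818 TPM in 4711-1 and at 0.661, 0.622 and 0.502 TPM in 4711-18. All 3 values of 4716-11 were above 36 TPM and no value of the 4711 lines reached 1 TPM. The log2 fold change was 4.82 ± 0.17 (SE, adjusted p = 1.13e-05). Hspb8 passed the filter on low values, 1 TPM in 3 of the 9 libraries, only through 4716-11, so it had to differ to be tested and its p is no further support. The same holds for Slc5a7, Grap and Gng2, and for 24 of the 242 genes called higher and 11 of the 52 set apart higher. In 176 of the 397 called lower and 45 of the 91 set apart lower, no library of 4716-11 reached 1 TPM. These genes passed the filter only through the 4711 lines, so their p is likewise no further support. Among the 12 largest falls they were Sgce, Fkbp10, Cdh13, Eif2s3y, Cldn3 and Tpd52l1.

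Slc5a7, the choline transporter of cholinergic neurons, followed the same pattern at a lower level. It was at 15.1, 13.6 and 13.3 TPM in 4716-11 and at 0.00926 to 0.185 TPM in the 6 libraries of the 4711 lines, a log2 fold change of 3.76 ± 0.10 (adjusted p = 2.45e-06). Grap, an adaptor of the GRB2 family, was at 19.3, 15.5 and 19.7 TPM against 0.380 to 0.991 TPM (3.498 ± 0.11, adjusted p = 5.72e-06). Gng2, a G protein gamma subunit, was at 5.42, 6.92 and 3.92 TPM against 0 to 0.136 TPM (2.56 ± 0.14, adjusted p = 4.73e-05). The largest rises and falls were picked among genes set apart, so their values could not overlap between the groups.

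Other large rises started from clear expression in 1 or both of the 4711 lines. Gstp1, the pi-class glutathione S-transferase, was at 154, 160 and 133 TPM in 4716-11, at 43.6, 61.2 and 59.4 TPM in 4711-1 and at 1.63, 1.06 and 0.585 TPM in 4711-18. The step from 4711-18 to 4711-1 was itself larger than that from 4711-1 to 4716-11. Gstp2, a near-identical neighbor of Gstp1 with which reads may be shared, was at 1.80 to 2.02 TPM in 4716-11 and at 0 to 0.557 TPM elsewhere, so both values are uncertain. Ccl9, a chemokine, was at 43.4, 38.8 and 35.8 TPM in 4716-11, 10.1 to 15.1 TPM in 4711-1 and 1.01 to 2.09 TPM in 4711-18.

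Chymase genes, best known from mast cells, were among the rises. Mcpt1 was at 309, 399 and 158 TPM in 4716-11 against 28.4 to 59.98 TPM in the 4711 lines. Mcpt4, with 2 tested genes between it and Mcpt1, was at 21.9, 21.99 and 12.1 TPM against 0.0881 to 2.28 TPM. Both were set apart. Edn1, the endothelin precursor, was at 35.5 to 40.7 TPM against 0.250 to 10.2 TPM, and its 6 low values were spread over more than an order of magnitude. Hpgd, which inactivates prostaglandins, was at 31.3 to 56.4 TPM against 1.77 to 11.3 TPM. Cdh2, N-cadherin, was at 9.50, 8.94 and 9.94 TPM against 1.51 to 2.81 TPM in 4711-1 and 0.218 to 0.369 TPM in 4711-18. Hoxc6, a homeobox gene, was at 4.66, 2.33 and 2.37 TPM, and the 4711 libraries had at most 0.1005 TPM. By the limit of 0.1 TPM in every library of 1 side, 1 gene was switched on in 4716-11: Capn6, a calpain without protease activity, at 2.94, 1.11 and 1.28 TPM against at most 0.0407 TPM.

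**Figure D2:**
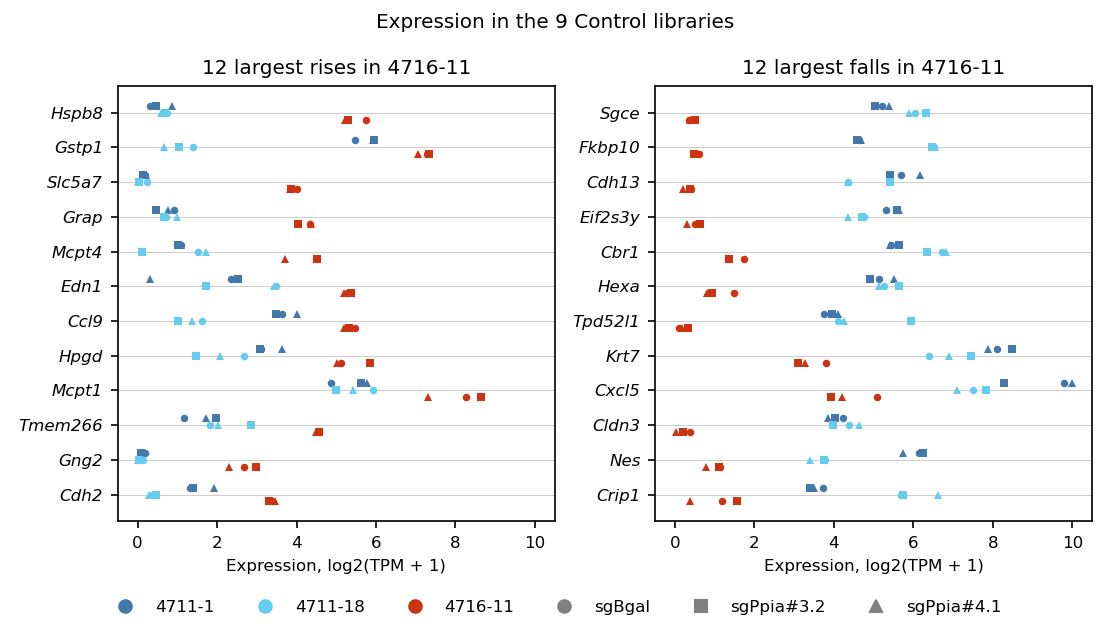
Expression as log2(TPM + 1) of the 12 named genes with the largest rise (left) and the 12 with the largest fall (right) in 4716-11. Color gives the line and shape the sgRNA of each of the 9 libraries. The genes were picked as set apart, so no value of 4716-11 can lie between those of the 4711 lines. For Gstp1 and Nes the 4711 lines lie far from each other.

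The largest fall was at an imprinted locus. Sgce, epsilon-sarcoglycan, is transcribed from the paternal allele in mouse. It was at 0.275, 0.426 and 0.294 TPM in 4716-11, at 36.2, 31.6 and 40.9 TPM in 4711-1 and at 64.4, 79.3 and 58.1 TPM in 4711-18. The log2 fold change was -5.24 ± 0.14 (adjusted p = 2.45e-06). Peg10, the retrotransposon-derived gene that is imprinted with Sgce and lies next to it, was at 0.0294 to 0.0639 TPM against 2.76 to 13.1 TPM (-2.58 ± 0.22, adjusted p = 0.000287). Both genes passed the filter only through the 4711 lines, so their p is no further support.

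The genes around this pair were chosen for description after their values had been seen. On the side of Sgce, the adjacent gene Casd1, a sialic acid O-acetyltransferase, was at 4.01, 3.15 and 3.71 TPM in 4716-11 against 8.59 to 15.0 TPM and was called lower (-1.44, adjusted p = 0.000145). The next 3 tested genes on that side, Bet1, Vps50 and Samd9l, had log2 fold changes of -0.15, -0.14 and 0.04 and were not called. On the side of Peg10, the paraoxonase genes Pon3 and Pon2 had log2 fold changes of -0.34 and 0.02 and were not called. Of 20 imprinted genes tested, 3 were called lower (Sgce, Peg10 and Ddc) and none higher, where 3.27% of all tested genes were lower. Ddc was lower against 4711-18 alone. Between the 4711 lines 4 of the 20 were called, where 9.3% of all tested genes were.

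Y-linked transcripts were near 0 in 4716-11. Eif2s3y, a translation initiation factor subunit, was at 0.424, 0.540 and 0.240 TPM in 4716-11, at 38.6, 46.8 and 48.5 TPM in 4711-1 and at 26.1, 25.01 and 19.5 TPM in 4711-18 (-4.57 ± 0.13, adjusted p = 3.83e-06). It passed the filter only through the 4711 lines, so this p is no further support. Ddx3y, an RNA helicase, was at 0.0354 to 0.0847 TPM against 5.09 to 23.6 TPM. Uty and Kdm5d, histone demethylases, were at most 0.0595 and 0.0241 TPM in 4716-11, with at least 2.31 and 1.95 TPM in each 4711 library. All 4 tested Y-linked genes were set apart. Their X-linked partners were not called, although Kdm5c and Kdm6a did not overlap between the groups: Ddx3x was at 214 to 221 TPM against 196 to 326 TPM, Eif2s3x at 25.6 to 34.2 against 26.9 to 61.0 TPM, and Kdm5c at 35.1 to 42.4 against 25.9 to 34.1 TPM. Kdm6a was at 7.24 to 7.61 against 9.08 to 12.5 TPM. Xist, the RNA of the inactive X chromosome, was at most 0.0379 TPM in every library of all 3 lines.

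By the limit above, 10 genes were switched off: Bcat1, Ddx3y, Emb, Kdm5d, Mlf1, Peg10, Rasef, Tcf24, Tusc1 and Uty. Bcat1, the cytosolic branched-chain aminotransferase, was at 0.0284 to 0.0565 TPM against 3.46 to 10.7 TPM. Mlf1, myeloid leukemia factor, was listed at 0 in all 3 libraries of 4716-11, against 6.16 to 10.2 TPM in 4711-1 and 1.79 to 2.46 TPM in 4711-18. Tusc1 was at 0.0481 to 0.0958 TPM against 3.503 to 17.7 TPM.

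Fkbp10 encodes a prolyl isomerase of the endoplasmic reticulum that acts on procollagen. It was at 0.516, 0.398 and 0.389 TPM in 4716-11, at 23.8, 23.04 and 24.5 TPM in 4711-1 and at 91.2, 86.9 and 91.8 TPM in 4711-18 (-5.05 ± 0.09, adjusted p = 6.4e-07). Fkbp10 passed the filter only through the 4711 lines, so this p is no further support. The gene beside it, P3h4, which acts in collagen lysine hydroxylation, was at 20.8 to 25.03 TPM against 66.8 to 119 TPM (-1.96). Plod2, a collagen lysyl hydroxylase on another chromosome, was at 4.55 to 5.13 TPM against 15.0 to 48.7 TPM (-2.05). These 3 genes were grouped by function after their values had been seen.

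Hexa, a lysosomal hexosaminidase subunit, was at 0.760 to 1.78 TPM against 28.9 to 48.6 TPM (-4.18 ± 0.21). Cdh13, the cadherin anchored by a lipid, was at 0.151 to 0.318 TPM against 19.3 to 71.1 TPM (-4.91 ± 0.27). Pgrmc1, a heme-binding membrane protein, was at 12.2, 14.9 and 18.5 TPM against 112 to 214 TPM (-3.23 ± 0.14). Cxcl5, a neutrophil chemokine, was at 32.8, 14.3 and 17.4 TPM against 310 to 1019 TPM in 4711-1 and 136 to 227 TPM in 4711-18. Nes, the intermediate filament nestin, was at 0.712 to 1.19 TPM against 52.2 to 75.1 TPM in 4711-1 and 9.52 to 12.6 TPM in 4711-18. Clu, the secreted chaperone clusterin, was the most abundant gene set apart lower, at 880, 828 and 978 TPM against 2070 to 3302 TPM.

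Genes set apart higher included a block of neighbors at 1 end of chromosome 8. Chromosome 8 held 60 of the 242 genes called higher, 8.70% of its 690 tested genes, and 24 of the 52 set apart higher. On the other 19 chromosomes with at least 50 tested genes, between 0.521% and 4.37% of tested genes were called higher. The calls were then put in chromosomal order by RefSeq (GRCm38.p6), which placed 12079 of the 12135 tested genes.

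The first 71 tested genes of chromosome 8, from Insr to 2610005L07Rik, formed a run that was higher in 4716-11. The run was found by its values, so its size and median are a description without a test. Of the 71 genes, 68 had a log2 fold change above 0, 48 were called higher and 22 were set apart higher, while over all tested genes 36.5% were above 0, 1.99% called higher and 0.429% set apart higher. In 63 of the 71 the lowest value of 4716-11 was above the highest of the 6 values of the 4711 lines, as it was in 6.52% of all tested genes. The median log2 fold change was 1.22 (quartiles 0.93 and 1.48), a 2.33-fold difference on the log2(TPM + 1) scale.

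The run had nearly the same height against each line and with each sgRNA. Its median was 1.19 against 4711-1 and 1.21 against 4711-18. For the sgBgal libraries it stood at 1.12, and the values for sgPpia#3.2 and sgPpia#4.1 were 1.22 and 1.28. Between the 4711 lines the median over the same genes was -0.08, and 5 of the 71 were called, where 9.3% of all tested genes were. The end of the run was set by the search, which stops where values fall, so a low next gene is partly given by it. The next 71 tested genes had a median of -0.30, with 7 above 0 and 2 called higher. The first of them, Atp7b, a copper transporter, was called lower (-1.38). Of the single lines it was called against 4711-18 and not against 4711-1. Alg11 and Nek3 after it had log2 fold changes of -0.60 and -0.40.

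**Figure D3:**
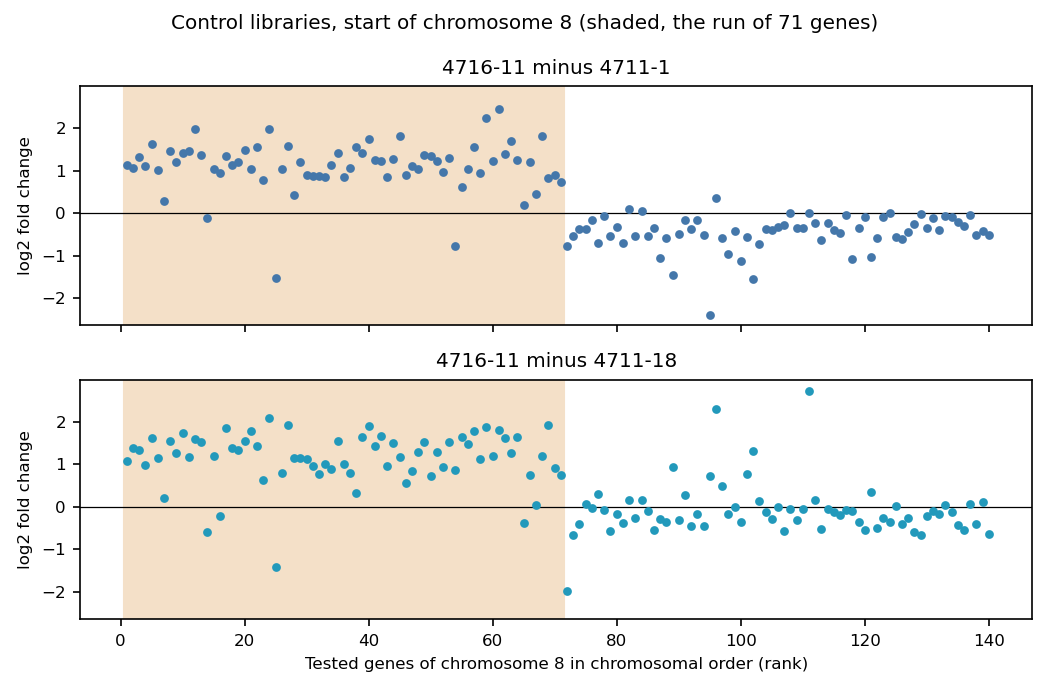
Log2 fold change of 4716-11 against 4711-1 (top) and against 4711-18 (bottom) for the first 140 tested genes of chromosome 8 in chromosomal order, 1 point per gene. The 71 shaded genes have medians of 1.19 and 1.21. The end of the shading was set by the search, and the next gene lies below 0 in both panels.

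Genes of unrelated function rose together in this run. The genes named from it beside those of the naming rule were chosen after their values had been seen. Lamp1, the lysosomal membrane glycoprotein, was at 1741, 1873 and 1787 TPM in 4716-11 against 523 to 742 TPM in the 4711 lines (1.45 ± 0.12, adjusted p = 0.00024). Tfdp1, the dimerization partner of E2F factors, was at 649, 685 and 622 TPM against 178 to 275 TPM. Upf3a, of nonsense-mediated decay, was at 289, 291 and 333 TPM against 65.9 to 107 TPM. Timm44, of mitochondrial protein import, was at 257 to 277 TPM against 88.2 to 102 TPM.

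The run also held Insr and Irs2. Insr, the insulin receptor, was at 18.97, 18.5 and 20.1 TPM against 6.42 to 10.6 TPM (1.11, adjusted p = 0.00388), and the adaptor gene Irs2 at 78.9 to 90.7 TPM against 18.6 to 51.5 TPM. Lig4, the DNA ligase of end joining, was at 29.8 to 33.9 TPM against 13.2 to 20.997 TPM. Cul4a, a ubiquitin ligase scaffold, was at 200 to 203 TPM against 74.2 to 100 TPM. Tdrp, Coprs and Ccl25 had the largest rises of the run, with log2 fold changes of 2.13, 2.06 and 2.03.

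A few genes inside the run did not follow it. Cers4, a ceramide synthase, was at 0.106 to 0.134 TPM against 1.48 to 3.20 TPM and was called lower (-1.48, adjusted p = 0.00111). Rprl3 and Kbtbd11 had log2 fold changes of -0.36 and -0.10. These 3 are the genes of the run at or below 0. Gas6 had 0.04, Angpt2 0.24 and Rps23rg1 0.25, and none of them was called. Gas6 itself was unlike between the 4711 lines, at 1.32 to 3.83 TPM in 4711-1 and at most 0.0842 TPM in 4711-18.

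Chromosome Y, with 4 tested genes, had too few for a median over neighbors. No other stretch on chromosomes 1 to 19 and X reached the height of this run against both 4711 lines. The median log2 fold change over 31 neighboring tested genes reached 1.24 against the nearer 4711 line in the chromosome 8 run. Elsewhere the highest such value was 0.69, at the start of chromosome 19 around Gstp2. The lowest was -0.48, on chromosome 14. Chromosome 14 had the lowest median of any chromosome with at least 50 tested genes, -0.45 over 391 genes, followed by -0.32 on chromosome 12 and -0.31 on chromosome 3. For chromosome 3 the median was -0.11 against 4711-1 and -0.49 against 4711-18, and for chromosome 12 it was -0.47 and -0.18, so each was farther from 0 against 1 of the lines. The deposited values are of RNA, DNA copy number was not measured, and the cause of these shifts was not tested.

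**Figure D4:**
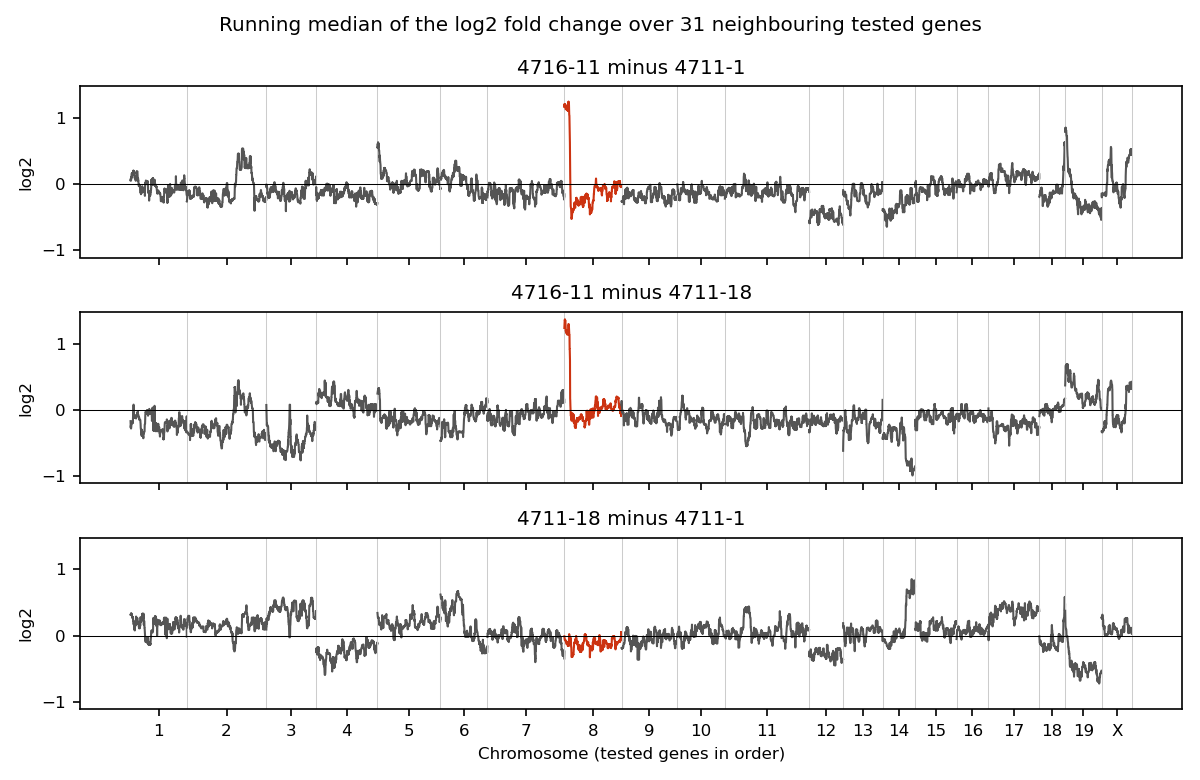
Running median of the log2 fold change over 31 neighboring tested genes, chromosomes 1 to 19 and X side by side, for 4716-11 minus 4711-1 (top), 4716-11 minus 4711-18 (middle) and 4711-18 minus 4711-1 (bottom). Chromosome 8 is in red. The step at its start reaches 1.24 or more in the upper panels and is absent from the lower panel.

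Outside the chromosome 8 run, 194 genes were called higher and 30 set apart higher. Some genes set apart were neighbors there too. Pairs set apart higher with no tested gene between them were Slc22a4 with Pdlim4, Xlr with 3830403N18Rik and Pak3 with Capn6. Such pairs set apart lower were Gstt3 with Gstt1, Clu with Ephx2, P3h4 with Fkbp10 and Sgce with Peg10, beside the Y-linked genes.

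Promoters of the genes set apart higher were then read from RefSeq (GRCm38.p6), 250 bases before to 50 after 1 start site per gene. A promoter was found for 9558 of the 12135 tested genes and for 22 of the 30 genes set apart higher outside the chromosome 8 run. The letters TGANTCA take in the core of the AP-1 element, TGACTCA or TGAGTCA, but also TGAATCA and TGATTCA, which are not that core. They read the same on both strands and were in 5.11% of all tested promoters. They were in 7 of 38 promoters of all genes set apart higher (18.4%), in 7 of the 22 left outside the run (31.8%) and in 24 of 176 promoters of all genes called higher (13.6%). In the genes set apart lower they were in 3 of 71 (4.23%), and in the chromosome 8 run in 1 of 52 (1.92%). These are shares without a test, and a match is not a bound site.

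Of the 7 matches, 5 were in genes with an assigned symbol. These are shown, since they carry this difference in share. Apol9a is printed because of its match and was chosen after its values were seen. Capitals mark TGANTCA. The promoters are those of Gstp1 (chr19:4037863-4038162, minus strand), Ccl9 (chr11:83578587-83578886, minus strand), Gng2 (chr14:19976644-19976943, minus strand), Apol9a (chr15:77411031-77411330, minus strand) and Capn6 (chrX:143827363-143827662, minus strand).
Gstp1: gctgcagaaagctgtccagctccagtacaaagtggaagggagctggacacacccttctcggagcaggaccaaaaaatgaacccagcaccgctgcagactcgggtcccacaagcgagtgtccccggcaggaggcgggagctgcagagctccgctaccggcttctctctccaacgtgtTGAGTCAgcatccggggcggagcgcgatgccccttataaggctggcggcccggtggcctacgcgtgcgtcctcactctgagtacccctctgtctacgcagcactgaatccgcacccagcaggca
Ccl9: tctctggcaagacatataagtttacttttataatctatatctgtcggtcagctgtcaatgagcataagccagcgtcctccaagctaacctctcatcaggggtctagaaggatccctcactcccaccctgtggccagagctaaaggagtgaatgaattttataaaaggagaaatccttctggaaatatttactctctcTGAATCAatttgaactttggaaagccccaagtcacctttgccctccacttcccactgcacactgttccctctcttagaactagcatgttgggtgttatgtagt
Gng2: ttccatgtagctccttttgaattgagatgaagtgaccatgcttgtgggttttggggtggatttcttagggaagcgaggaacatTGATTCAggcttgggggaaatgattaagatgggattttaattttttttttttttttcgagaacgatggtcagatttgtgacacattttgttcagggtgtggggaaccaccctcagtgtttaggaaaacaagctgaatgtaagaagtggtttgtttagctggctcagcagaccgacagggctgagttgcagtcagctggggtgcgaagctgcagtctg
Apol9a: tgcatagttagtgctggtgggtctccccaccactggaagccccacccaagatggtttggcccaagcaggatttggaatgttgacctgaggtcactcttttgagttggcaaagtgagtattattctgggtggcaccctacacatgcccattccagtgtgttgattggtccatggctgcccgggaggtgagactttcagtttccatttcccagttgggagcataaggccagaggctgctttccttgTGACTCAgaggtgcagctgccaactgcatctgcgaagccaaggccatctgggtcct
Capn6: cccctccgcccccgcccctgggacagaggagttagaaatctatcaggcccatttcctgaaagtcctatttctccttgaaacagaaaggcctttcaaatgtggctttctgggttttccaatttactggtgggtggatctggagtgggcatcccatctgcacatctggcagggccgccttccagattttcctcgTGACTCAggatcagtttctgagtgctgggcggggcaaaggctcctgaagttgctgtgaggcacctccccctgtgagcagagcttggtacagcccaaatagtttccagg

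The matches began 74, 53, 167, 6 and 58 bases before the start site in this order. In Gstp1 the letters were TGAGTCA, in Ccl9 TGAATCA, in Gng2 TGATTCA, and in Apol9a and Capn6 TGACTCA. Apol9a, an interferon-inducible apolipoprotein L gene, was at 3.89, 5.99 and 4.69 TPM in 4716-11 against 0.0752 to 0.475 TPM. The remaining matches were in 3300005D01Rik (TGACTCA) and 9230112J17Rik (TGATTCA). Not all of the matches are thus the AP-1 core. The other motifs searched on both strands moved less. CAGCTG was in 22.7% of the 22 promoters and 14.4% of all, CCAAT in 11 of the 22 and in 39.4% of all, and TGACGTCA in 0 of 22 and 3.38%.

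CpG dinucleotides were counted in the same promoters. Over all tested promoters the median was 21. It was 14 for all genes set apart higher, 11 for all called higher and 16 for all called lower. The median was 6 in the 22 promoters set apart higher outside the run, and 31.8% of them held fewer than 5 CpG, against 6.99% of all tested and 12.96% of those called lower. In the genes set apart lower the median was 18 and in the chromosome 8 run 22.5.

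Gene lists placed these differences in pathways. Counts against the average of the 4711 lines are read beside the background of 1.99% higher and 3.27% lower. For calls in either direction the background was 6.46% between 4716-11 and 4711-1, 8.72% between 4716-11 and 4711-18, and 9.3% between the 4711 lines. Epithelial junction and keratin genes had 10 of 32 tested members lower and 2 higher, with a median log2 fold change of -0.33 where all genes had -0.12. Between the 4711 lines 13 of the 32 were called, beside 11 between 4716-11 and 4711-1 and 12 between 4716-11 and 4711-18. Krt7, a simple-epithelium keratin, fell from 233 to 354 TPM in 4711-1 and 83.6 to 173 TPM in 4711-18 to 12.9, 7.53 and 8.60 TPM in 4716-11 (-4.15, adjusted p = 7.06e-05). Cldn3, a tight-junction claudin, was at 0.0260 to 0.310 TPM against 13.4 to 23.6 TPM (-3.97). Ocln, Tjp3, Dsp and Muc1 were also lower against both lines, with log2 fold changes of -1.95, -1.54, -1.33 and -1.21. The abundant keratins Krt8, Krt18 and Krt19 had -0.27, -0.29 and -0.27 and were not called. The claudins that were higher were each called against 1 of the 4711 lines only. Cldn6 was at 139 to 173 TPM in 4716-11 and 68.3 to 109 TPM in 4711-18 but at most 2.16 TPM in 4711-1. Cldn18 was at 71.8 to 85.4 TPM in 4716-11 and 73.8 to 99.2 TPM in 4711-1 but at most 1.28 TPM in 4711-18.

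Mesenchymal and extracellular matrix genes had 4 of 38 lower and 2 higher, with 14 called between the 4711 lines. Timp3, a metalloproteinase inhibitor, was at 1.24 to 2.58 TPM against 19.7 to 66.2 TPM (-3.52), and Mmp14, a membrane metalloproteinase, at 0.294 to 0.379 TPM against 4.76 to 17.2 TPM (-2.74). Vim was not called (-0.38). Of 14 cadherin and neural adhesion genes, 3 were lower, and of these Cdh13 alone was lower against both lines. Cdh2, higher against both lines, was counted in the mesenchymal list and not among these 14. Between the 4711 lines 6 of the 14 were called.

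Glutathione, xenobiotic and aldehyde enzymes had 9 of 57 lower and 4 higher. Between the 4711 lines 23 of the 57 were called, beside 13 between 4716-11 and 4711-1 and 18 between 4716-11 and 4711-18. Cbr1, a carbonyl reductase, was at 1.55 to 2.36 TPM in 4716-11 against 41.9 to 48.7 TPM in 4711-1 and 79.9 to 112 TPM in 4711-18 (-4.57, adjusted p = 6.32e-06). The theta-class transferases Gstt1 and Gstt3 had log2 fold changes of -2.93 and -2.39, and Ephx2, an epoxide hydrolase, had -2.05. Gsta4, Gsto1 and Gpx4, the most abundant members, had 0.13, 0.23 and 0.10 and were not called.

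Of 25 SCLC lineage and subtype factors, 3 were lower in 4716-11 and none higher, and none was called against both lines in the same direction. Of the same 25, 7 were called between 4716-11 and 4711-1, 4 between 4716-11 and 4711-18, and 8 between the 4711 lines, beside 6.46%, 8.72% and 9.3% of all tested genes. Sox2 was at 0.292 to 0.437 TPM in 4716-11 and 0.722 to 1.26 TPM in 4711-18, with 7.31 to 11.9 TPM in 4711-1. Nkx2-1, the lung lineage factor, was intermediate at 22.1 to 27.3 TPM, between 2.56 to 6.77 TPM in 4711-1 and 69.6 to 78.9 TPM in 4711-18. Pdx1, a ParaHox factor of foregut epithelium, was at 97.8 to 110 TPM in 4716-11 and 116 to 195 TPM in 4711-1, with at most 1.35 TPM in 4711-18. Yap1, the coactivator that marks non-neuroendocrine SCLC, was at 63.2 to 116 TPM in all 9 libraries and was not called.

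Neuroendocrine secretory and neuronal genes had 3 of 30 lower and none higher, and Syn1, a synaptic vesicle protein, was the member lower against both lines (1.15 to 1.29 TPM against 2.93 to 9.29 TPM). Of 7 lung epithelial markers, 2 were lower and 1 higher, each against 1 line only. Notch genes had 2 of 16 lower. Nrarp, a Notch target that feeds back on the pathway, was at 6.72 to 10.6 TPM against 22.6 to 52.7 TPM (-1.76, adjusted p = 0.00534). Receptor tyrosine kinases and their ligands had 4 of 35 lower and 1 higher, Insr of the chromosome 8 run. Egfr, the EGF receptor, was at 0.467 to 0.885 TPM, near the 1.28 to 2.36 TPM of 4711-18 and below the 6.74 to 10.9 TPM of 4711-1. Its ligand gene Ereg was at 22.7 to 42.5 TPM against 48.0 to 121 TPM (-1.03).

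None of 12 MYC family and partner genes was called. Myc was at 180 to 227 TPM in 4716-11, overlapping the 184 to 364 TPM of the 4711 libraries. Mycn was at 0.291 to 0.854 TPM in 4716-11, 0.0778 to 0.320 TPM in 4711-1 and 4.87 to 9.74 TPM in 4711-18. Mycl was at 3.87 to 6.33 TPM against 1.54 to 9.54 TPM. The other members, Max, Mxd1, Mxd3, Mxd4, Mxi1, Mga, Mnt, Mlx and Mlxip, had log2 fold changes between -0.54 and 1.02. Of 30 proliferation genes and of 28 stress and immediate early genes, none was called in either direction. Pcna, the replication clamp, was at 2029 to 2296 TPM against 738 to 1300 TPM, and its log2 fold change of 0.99 lay just under the limit of 1.

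Interferon and antigen presentation genes had 3 of 28 higher (10.7%) and none lower, with 6 called between the 4711 lines. Tap1 and Tap2, the peptide transporter for MHC class I, had log2 fold changes of 1.11 and 1.63 against the average of the 4711 lines and were called against both. H2-Q4 was called against 4711-18 alone. B2m and H2-D1 had 0.41 and 0.21 and were not called. Of 30 p53 target genes, 1 was higher (Fas, the death receptor, 7.02 to 8.71 TPM against 1.16 to 4.84 TPM) and 1 lower (Sulf2). Amino acid and one-carbon genes had 2 of 39 lower and 1 higher, Wnt genes 2 of 22 and 1, and Hedgehog, BMP and TGF-beta genes 1 of 29 and 0. Of 44 Hox and ParaHox genes, 3 were tested and 2 were called higher. Hoxc6 was set apart from both lines, while Pdx1 was called against 4711-18 alone and had a log2 fold change of -0.46 against 4711-1.

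The study's own lists were chosen partly on these or related samples, so their counts are not independent evidence. The Type D signature had 1 of 104 higher and 2 lower, and the Type V signature 0 of 35 higher and 3 lower. Module 1 had 3 of 200 higher and 10 lower, Module 2 had 0 of 53 and 1, Module 3 had 3 of 216 and 0, Module 4 had 0 of 74 and 5, Module 5 had 1 of 91 and 3, and Module 6 had 2 of 60 and 2. Module members in the chromosome 8 run were Shcbp1 of Module 3, Agpat5 of Module 5 and Erich1 of Module 6, with log2 fold changes of 1.75, 1.52 and 1.51.

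The Restored libraries gave the same comparison in samples that share none with the Control libraries, although they come from the same lines and carry the same sgRNAs. Of 12442 genes tested there, 405 were higher in 4716-11 and 504 lower, or 3.26% and 4.05%. Of the 242 genes higher in Control, 219 were tested in Restored, and 161 (73.5%) were called higher again. They made up 39.8% of the Restored calls. Of the 397 lower genes, 378 were tested and 272 (72.0%) were called lower again, 54.0% of the Restored calls. In each direction, 1 gene was called the opposite way. Some lists had other counts in Restored. Of 30 proliferation genes 12 were higher there and none lower, where none was called in Control, and of 213 Module 3 genes 39 were higher, where 3 of 216 were in Control. The interaction test had an adjusted p under 0.05 for 1 of the proliferation genes and 4 of the Module 3 genes. All 49 genes set apart higher and all 90 set apart lower that were tested in Restored had the same sign there.

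**Figure D5:**
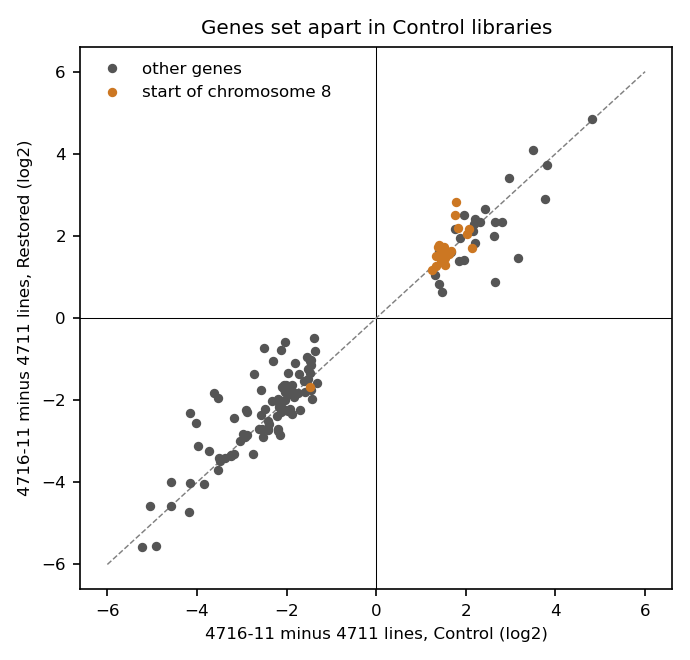
Log2 fold change of 4716-11 minus the 4711 lines in Control libraries (x) and in Restored libraries (y) for the 139 genes set apart in Control and tested in Restored, 1 point per gene. All points lie in the same-sign quadrants, and genes at the start of chromosome 8 (orange) cluster near the dashed line of equality.

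Of the 24 genes with the largest rises and falls, 22 were called in the same direction in Restored. In these libraries the log2 fold change was 4.83 for Hspb8, 4.10 for Grap, -5.57 for Sgce, -5.56 for Cdh13, -4.57 for Fkbp10 and -4.57 for Eif2s3y. Other differences were smaller there. Mcpt4 had 1.45 in Restored where it had 3.15 in Control, and Cxcl5 had -2.55 where it had -4.01, with interaction adjusted p of 0.115 and 0.27. Hpgd had 0.88 where it had 2.65 and was not called in Restored (adjusted p = 0.111, interaction adjusted p = 0.143), and Gng2 was not tested there. In the chromosome 8 run, 69 of 70 genes tested in Restored had a log2 fold change above 0, with a median of 1.31, and 49 were called higher. The search for runs in the Restored values alone also gave Insr as the first gene and 2610005L07Rik as the last.

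The change of the line difference with restoration was tested as an interaction over all 18 libraries. Of 12135 genes, 100 had an adjusted p under 0.05, and 31 of them were among the 639 genes called in Control. Mmp15, a membrane metalloproteinase of Module 1, had the lowest p. In Control it was at 0.472 to 0.863 TPM in 4716-11, 14.8 to 18.1 TPM in 4711-1 and 1.61 to 2.35 TPM in 4711-18. Its line difference of -2.07 in Control was 0.08 in Restored (interaction adjusted p = 3.98e-05). Slc5a7 stayed higher, by 2.90 in Restored (interaction adjusted p = 0.00387). Krt7 stayed lower, by -2.32 (interaction adjusted p = 0.0291). For Gng2, which was not tested in the Restored fit because of its low values there, the interaction was -1.82 (adjusted p = 0.00018). Gng2 and Slc5a7 passed the Control filter only through 4716-11, and Mmp15 only through the 4711 lines. Their interaction p is therefore no further support.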

How the data were processed

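RNA was sequenced from 18 libraries of lines 4711-1, 4711-18 and 4716-11, and the 9 Control libraries were compared here. Groups were taken from the labels. Per the labels, libraries were demultiplexed with bcl2fastq 2.17 and aligned with HISAT2. The submitters' notes name both mm10 and GRCm39, so no gene coordinates of the files are given. The authors deposited TPM values per gene, each column with the same total, without counts, so absolute depth and its precision are unknown.

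Values were compared as log2(TPM + 1), a scale that understates changes of low genes. The fit took the genes that reached 1 TPM in 3 or more of the 9 libraries. It was made with limma 3.58.1 in R 4.3.3, with 1 mean per line and the sgRNA as a block. The contrast was 4716-11 minus the average of both 4711 lines. A call needed a difference of 1 or more on the log2 scale, up or down, with a p below 0.05 after Benjamini-Hochberg adjustment. P-values measure the spread between libraries of a line that is left after the sgRNA block. With 1 library for each line, sgRNA and treatment, technical spread cannot be told apart from effects of an sgRNA within a line. Restored libraries were fitted in the same way, and the interaction over all 18 libraries. The main fit, the set-apart rule and the search for runs were tried on simulated data. For the fit, these data held no genes of low mean value. The interaction and line-mean fits were not tried in this way.

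Named genes were the engineered genes, the 12 largest rises and 12 largest falls among called and set-apart genes, genes at 0.1 TPM or less on 1 side, the 6 most abundant set-apart genes per direction, and up to 5 called and 3 abundant members per list. The members, the 22 gene lists and the tests were chosen with earlier results of these data known. The other 8 lists are the study's. Gene order and promoters came from RefSeq (GRCm38.p6), matched by symbol. Runs of neighbors were sought by limiting differences to 2, subtracting the median and an offset of 0.5, and taking the best run of at least 10 genes per chromosome. Alternatives tried were pseudocount, scaling, filter, block, line means, moderation, fold limit, samples fitted, each library or sgRNA left out, and each 4711 line alone.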

Additional observations from a re-analysis of the deposited data

Results flagged for a closer look

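The line difference changed between Control and Restored libraries, by the interaction test in limma, for 6 of the genes named in the text. The change in log2 fold change was -0.86 for Slc5a7 (adjusted p = 0.00387), -1.82 for Gng2 (adjusted p = 0.00018), 1.83 for Krt7 (adjusted p = 0.0291), 2.15 for Mmp15 (adjusted p = 3.98e-05), 0.72 for Gsto1 (adjusted p = 0.0115) and 0.61 for Nek3 (adjusted p = 0.0301). Krt7 and Slc5a7 kept the direction they had in Control. Gng2, Slc5a7 and Mmp15 passed the Control filter on low values only through the side where they were higher. Their interaction p is therefore no further support for a change. Gng2 was also not tested in the Restored fit because of its low values there.

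In 5 genes, 1 of the 6 libraries of the 4711 lines stood far from the others. In 4 of them it was 4711-18 with sgPpia#3.2. Its Tfdp1 was at 178 TPM where the others had 238 to 275 TPM, its Upf3a at 65.9 TPM where the others had 101 to 107 TPM, its Pcna at 738 TPM where the others had 1120 to 1300 TPM, and its Tpd52l1 at 60.5 TPM where the others had 12.5 to 18.2 TPM. Angpt2 was at 4.01 TPM in 4711-1 with sgPpia#3.2 and at 7.65 to 9.54 TPM in the others. Chance flags about 1 in 20 such groups.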

How the results depend on the processing

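The counts of called genes were within 1.5 times their reported values under most alternatives. With a pseudocount of 0.1, 162 genes were set apart lower, and 614 and 760 were called higher and lower in Restored. With 1 mean for all 4711 libraries, 124 and 160 genes were called, and 265 and 307 in Restored. With the 3 line means as the unit, 0 were called in either direction in both states. Without a minimum fold change, 932 and 1742 were called, 2468 against 4711-1, 3105 against 4711-18, 3237 between the 4711 lines, and 2068 and 4064 in Restored. Against 4711-1 alone, 114 and 274 genes were set apart. Against 4711-18 alone, 479 were called higher, and 246 and 316 were set apart. Ddc, Cldn18 and Pdx1 changed sign against 4711-1 alone, to log2 fold changes of 0.42, -0.11 and -0.46. The causes of these changes were not tested.

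Leaving out libraries gave 140 to 269 genes called higher and 188 to 438 lower, 43 to 59 set apart higher and 91 to 117 lower, 282 to 863 called against 4711-1, 535 to 1193 against 4711-18, 615 to 1170 between the 4711 lines, and 341 to 431 higher and 426 to 524 lower in Restored. The lowest counts of called genes came without all 3 sgBgal libraries. Without the 3 sgPpia#4.1 libraries, 480 were called against 4711-1. Deviations of libraries with the same sgRNA correlated between -0.51 and 0.30, so the sgRNA did not pair the libraries throughout. Without the replicate block, 243 genes were called higher and 404 lower. TPM keeps no depth, so the depth that limits low values is unknown.

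Among the called genes named in the text, 9 lost their call without 1 library. Without each library of 4716-11 in turn, the adjusted p rose to 0.063, 0.111 and 0.0805 for Shcbp1 and to 0.0651, 0.0949 and 0.0661 for Fas, in the order sgBgal, sgPpia#3.2 and sgPpia#4.1. Fas also fell to 0.96 on the log2 scale without 4711-1 with sgPpia#3.2. Without 1 library of 4716-11, Edn1 had 0.0683 (sgPpia#3.2) and 0.0706 (sgPpia#4.1), H2-Q4 0.0579 (sgBgal) and 0.0593 (sgPpia#3.2), Epcam 0.0763 (sgBgal) and 0.0684 (sgPpia#4.1), and Nrarp 0.0507 (sgPpia#4.1). Ereg had 0.176 and 0.155 without 4716-11 with sgPpia#3.2 and sgPpia#4.1, 0.074 and 0.0587 without 4711-1 with sgBgal and sgPpia#4.1, and -0.83 on the log2 scale without 4711-18 with sgPpia#3.2. Lig4 was between 0.93 and 0.997 on the log2 scale without 4716-11 with sgBgal or sgPpia#3.2, 4711-1 with sgBgal or sgPpia#3.2, or 4711-18 with sgPpia#4.1. Insr had 0.994 without 4711-18 with sgPpia#4.1.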
